A study of Populus tremula x Populus alba with 10 samples.

Results

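Of 17189 genes measured at a mean of 5 CPM or more (CPM scales a gene's count to a common library total) both in bulk stem RNA and in stem nuclei of hybrid poplar, 52 went in opposite directions under severe drought. They were chosen by their values. The ratio of the drought mean to the control mean had to be 2-fold or more one way in bulk and 2-fold or more the other way in nuclei, and drought and control libraries could not overlap in either assay. Of the 52 genes, 20 were higher in bulk and lower in nuclei, and 32 were lower in bulk and higher in nuclei. The files list 31823 genes in all. The drought changes below are the values that chose the genes, so they are described and not tested.

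The plants were Populus tremula x Populus alba of wild-type genotype, INRA clone 717 1B4, all raised in vitro and grown in peat for 6 weeks before treatment. Drought plants went without irrigation down to 15% of field capacity, the water a drained soil holds, and were kept there for 14 days. Control plants stayed near field capacity, a volumetric soil moisture of 0.46. Bulk libraries of total stem RNA numbered 3 for drought and 3 for control, and nuclei libraries 2 for drought and 2 for control. Each nuclei library came from the sorted nuclei of 1 plant, from internode 15 per the sample labels, whereas the series' design text names internode 14 as well. Every plant was of 1 clone, and no label ties a bulk library to the plant of a nuclei library. The assays differ in the RNA compartment and may differ in the stretch of stem and in the plants, and these cannot be told apart here.

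Total RNA from a plant stem is mostly cytoplasmic, and its messenger RNA is mostly spliced transcripts, whose level reflects both how fast they are made and how long they last. A nucleus holds transcripts that are being made, spliced or kept from export, so its RNA is closer to recent transcription. Sorted nuclei also leave out whatever a cell keeps in its cytoplasm, and the kinds of nuclei recovered need not match the cells that give most of the stem's RNA. In bulk RNA, fewer cells of a type and less RNA per cell cannot be told apart.

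No names go with the IDs in the files, so the genes are given by ID and no function, family or cell type is assigned. Genes were picked for description by rank: in each direction the pair with the largest smaller-of-both log2 ratio, the pairs highest and lowest in nuclear level, and the pair in each direction most concentrated in 1 of the 17 clusters of nuclei that had at least 30 nuclei in every library.

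Bulk libraries held 47900128 to 53320324 counts under drought and 48103219 to 57594846 in controls. Nuclei libraries held 1932106 and 1996618 unique molecular identifiers (UMIs, tags that count each captured molecule once) under drought, against 4363243 and 3651340 in controls. They came from 4203 and 6066 drought barcodes and from 4439 and 5698 control barcodes. The median barcode held 347 and 263 UMIs under drought, against 736 and 517 in controls. At least 200 genes were detected in 75.5% and 61.7% of drought barcodes, against 97.8% and 100% of control barcodes. Pairs of nuclei libraries shared 18 to 56 barcodes, the most between the drought libraries. Bulk drought library 2 stood nearer to the controls than the other drought libraries did, which touches the bulk values below.

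Opposite change was rare among genes that passed the same limits in both assays. There were 936 such genes, and 884 of them moved the same way, 352 higher and 532 lower under drought in both. The 52 were 5.56% of the 936. In bulk, 1264 of the 17189 genes were higher (7.35%) and 2268 lower (13.2%), and in nuclei 937 were higher (5.45%) and 939 lower (5.46%). The 20 genes higher in bulk and lower in nuclei were 1.58% of the bulk list and 2.13% of the nuclei list. The 32 genes lower in bulk and higher in nuclei were 1.41% and 3.42% of theirs. For comparison, genes higher in both made up 27.8% of the bulk list and 37.6% of the nuclei list, and genes lower in both 23.5% and 56.7%.

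**Figure D1:**
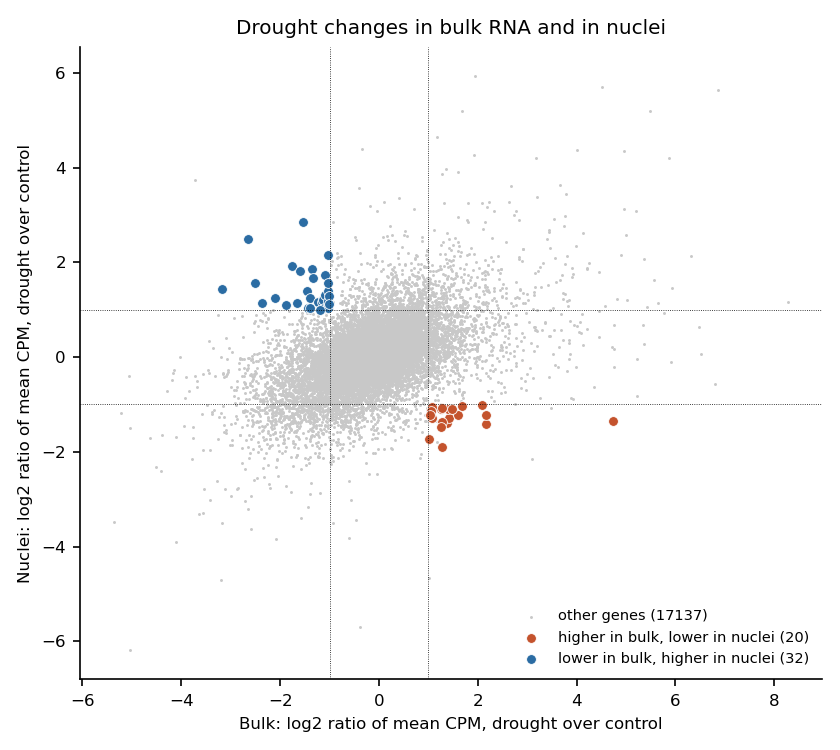
Log2 ratio of mean CPM, drought over control, in bulk (horizontal axis) and in nuclei (vertical axis), 1 point per gene, with the 2-fold limits as thin lines. The 20 genes higher in bulk and lower in nuclei lie at the lower right and the 32 lower in bulk and higher in nuclei at the upper left, at the edge of a cloud whose other strongly changed genes run from lower left to upper right. Grey points past both limits at the lower right or upper left are genes whose libraries overlapped.

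Most of the 52 lay close to the limits. For the 20 genes higher in bulk, the bulk log2 ratio ran from 1.01 to 4.73 with a median of 1.33, and the nuclei log2 ratio from -1.90 to -1.02 with a median of -1.22. For the 32 genes lower in bulk, the bulk log2 ratio ran from -3.17 to -1.01 with a median of -1.28, and the nuclei log2 ratio from 1.01 to 2.86 with a median of 1.24. Over all 17189 genes the median log2 ratio was -0.13 in bulk and 0.04 in nuclei. At the limits, the smallest nuclei log2 ratio of a gene taken in was -1.02 in the first direction and 1.01 in the second. Of genes left out, the nearest had a nuclei log2 ratio of -0.997 in the first direction, and in the second a nuclei log2 ratio of 0.995 or a bulk ratio just short of the limit. With no limit on fold, 420 of the 17189 genes were higher in bulk and lower in nuclei without overlap of libraries. The reverse held for 1108 of the 17189. The matching count of genes that moved the same way was not made, nor was the number to be met by chance estimated. Both counts used raw totals, and whether the scaling sets their balance was not tested.

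The size of the list depended on how libraries were scaled. The limits used CPM from raw totals, while scaling by the trimmed mean of M-values (TMM, which sets the typical gene to no change) put the median gene at -0.01 in bulk and -0.02 in nuclei. With TMM, 32 genes were higher in bulk and lower in nuclei, including all 20, and 17 were lower in bulk and higher in nuclei, all from the 32. The share of the first direction is thus 20 of 52 with raw totals and 32 of 49 with TMM. Both counts also moved by more than 1.5 times when nuclei drought library 2 or nuclei control library 2 was left out, to 63 and 35 genes in the first direction and to 53 and 63 in the second. The genes themselves changed too: of the 20, only 16 and 10 remained in these lists, and of the 32, only 24 and 27. Without bulk drought library 2 the second direction held 53 genes.

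The model fitted to all genes gives a background for these choices. With edgeR's quasi-likelihood test at a false discovery rate of 0.05, 54.2% of 26448 genes were called between drought and control in bulk, and 49 of the 52 genes were among them, 20 higher and 29 lower. In nuclei, 8.80% of 20768 genes were called, and 25 of the 52 were among them, 8 of the 20 lower and 17 of the 32 higher. Genes that passed the same limits in 1 direction were called in nuclei more often. These were 221 of 351 tested genes higher in both assays and 409 of 531 lower in both. The difference between the drought effects of the assays was called for 7.21% of 27746 genes, and for 45 of the 52, that is 20 of 20 and 25 of 32. Of all the genes so called, 650 had the higher drought effect in nuclei and 1351 the lower, against 1474 and 819 with no scaling beyond library size. The choice of genes fixed these contrasts, so the counts describe how often the fit separated libraries that had been required not to overlap. The p-values behind them measure the spread between these libraries, each nuclei library being 1 plant.

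PtXaAlbH.10G031500 had the largest opposite change among the genes higher in bulk and lower in nuclei, by the smaller of its log2 ratios. In bulk it was measured at 67.0, 24.9 and 63.7 CPM under drought, against 12.1, 11.0 and 11.6 CPM in controls. Its level in nuclei was 21.7 and 13.0 CPM under drought (42 and 26 UMIs), against 40.1 and 51.8 CPM in controls (175 and 189 UMIs). The groups did not overlap in either assay, bulk drought library 2 was the lowest of the drought libraries, and the log2 ratios of means were 2.16 in bulk and -1.40 in nuclei. As group means, the gene averaged 51.8 ± 23.4 CPM in drought bulk and 11.6 ± 0.515 CPM in control bulk (SD, n = 3 each). It averaged 17.4 ± 6.16 CPM in drought nuclei and 45.9 ± 8.24 CPM in control nuclei (SD, n = 2 each).

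PtXaAlbH.15G079800 came second in that direction at much lower levels. In bulk it was at 15.6, 19.3 and 18.9 CPM under drought, against 6.05, 6.66 and 7.93 CPM in controls. Nuclei held it at 1.55 and 4.51 CPM under drought, against 7.79 and 8.22 CPM in controls. These nuclei values rest on 3 and 9 UMIs under drought and on 34 and 30 UMIs in controls, so the log2 ratio of -1.40 rests on few molecules. It was -0.83 without nuclei drought library 1 and -2.37 without nuclei drought library 2. The bulk log2 ratio of 1.38 rests on 748 to 1029 counts per drought library and 291 to 457 per control library, and here bulk drought library 2 was the highest of the drought libraries.

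PtXaAlbH.16G076800 had the largest opposite change of all 52 by the same measure. In bulk it was at 3.80, 5.70 and 3.74 CPM under drought, against 28.0, 23.9 and 31.5 CPM in controls, a mean 6.29-fold lower under drought. In nuclei it was at 182 and 70.6 CPM under drought (351 and 141 UMIs), against 24.3 and 20.3 CPM in controls (106 and 74 UMIs), a mean 5.66-fold higher under drought. The drought nuclei libraries differed from each other by more than 2-fold, yet both were far above both controls. The nuclei log2 ratio was 1.66 without drought library 1 and 3.03 without drought library 2. Its transcript was thus scarcer than in controls in total stem RNA and more abundant than in controls in nuclei, by log2 ratios of -2.65 and 2.50.

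PtXaAlbH.16G009000 came second in that direction. In bulk it was at 18.1, 20.6 and 18.4 CPM under drought, against 74.0, 55.7 and 63.2 CPM in controls. The nuclei libraries had it at 225 and 237 CPM under drought (435 and 474 UMIs), against 58.0 and 64.6 CPM in controls (253 and 236 UMIs). The libraries of each group lay close together, and the log2 ratios of means were -1.76 in bulk and 1.92 in nuclei. In control plants its CPM was about the same in both assays, whereas under drought the nuclei values were more than 10 times the bulk values.

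**Figure D2:**
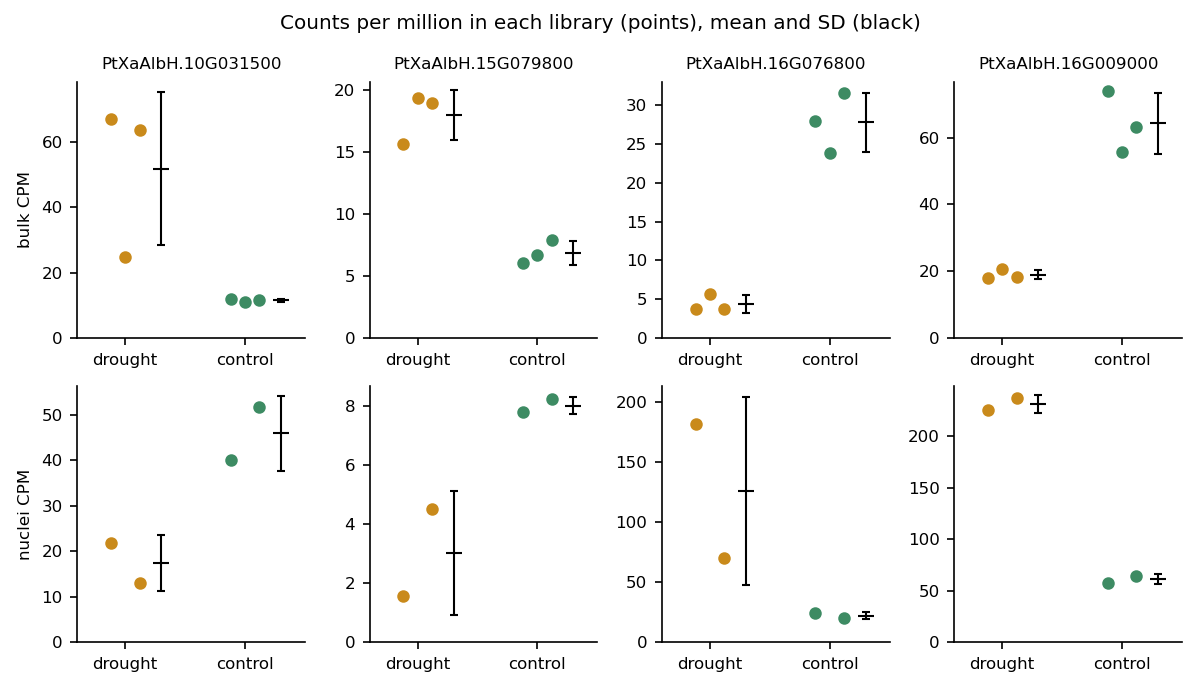
CPM of 4 genes in each library, bulk in the upper row and nuclei in the lower row, drought left of control, with each group's mean and SD in black. PtXaAlbH.10G031500 and PtXaAlbH.15G079800 are higher under drought in bulk and lower in nuclei, and PtXaAlbH.16G076800 and PtXaAlbH.16G009000 the other way round; no groups overlap.

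Among all 20 genes higher in bulk, CPM in bulk had medians of 72.7, 53.6 and 68.1 in the drought libraries, against 24.5, 26.9 and 27.3 in the control libraries. In nuclei the medians were 13.7 and 14.3 CPM under drought, against 37.0 and 32.3 CPM in controls. Single values ran in bulk from 5.08 to 1672 CPM under drought and from 1.20 to 466 CPM in controls, so the direction is shared by scarce and abundant transcripts. The nuclei counts behind them were 3 to 150 UMIs per gene and library under drought, against 25 to 989 in controls. The drought nuclei libraries differed by 2-fold or more for 3 of the 20 genes, and the control nuclei libraries for 2.

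Among the 32 genes lower in bulk, CPM in bulk had medians of 11.4, 19.4 and 10.9 in the drought libraries, against 38.4, 31.7 and 40.8 in the control libraries. In nuclei the medians were 31.8 and 29.0 CPM under drought, against 12.4 and 16.3 CPM in controls. The nuclei counts were 9 to 850 UMIs per gene and library under drought, against 9 to 652 in controls. Because the drought nuclei libraries were shallower, similar UMI counts in the groups stand for higher CPM under drought. The drought nuclei libraries differed by 2-fold or more for 7 of the 32 genes, and the control nuclei libraries for 4.

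Bulk drought library 2 lay between the other drought libraries and the controls for most of the genes. Its log2 distance from the control mean was smaller than that of drought libraries 1 and 3 for 16 of the 20 genes and for 30 of the 32. As a share of the distance of libraries 1 and 3, it had a median of 0.607 in the 20 genes and 0.558 in the 32. The same share was 0.795 for the 352 genes higher in both assays and 0.693 for the 532 lower in both. Library 2 was thus nearer to the controls, relative to libraries 1 and 3, for genes of opposite direction than for genes of shared direction, a description with no test. The choice used these bulk values, and the bulk changes differed in size. Their median log2 ratios were 1.33 in the 20 and -1.28 in the 32, against 1.71 in the 352 and -1.78 in the 532. Whether this size bears on the share was not tested.

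**Figure D3:**
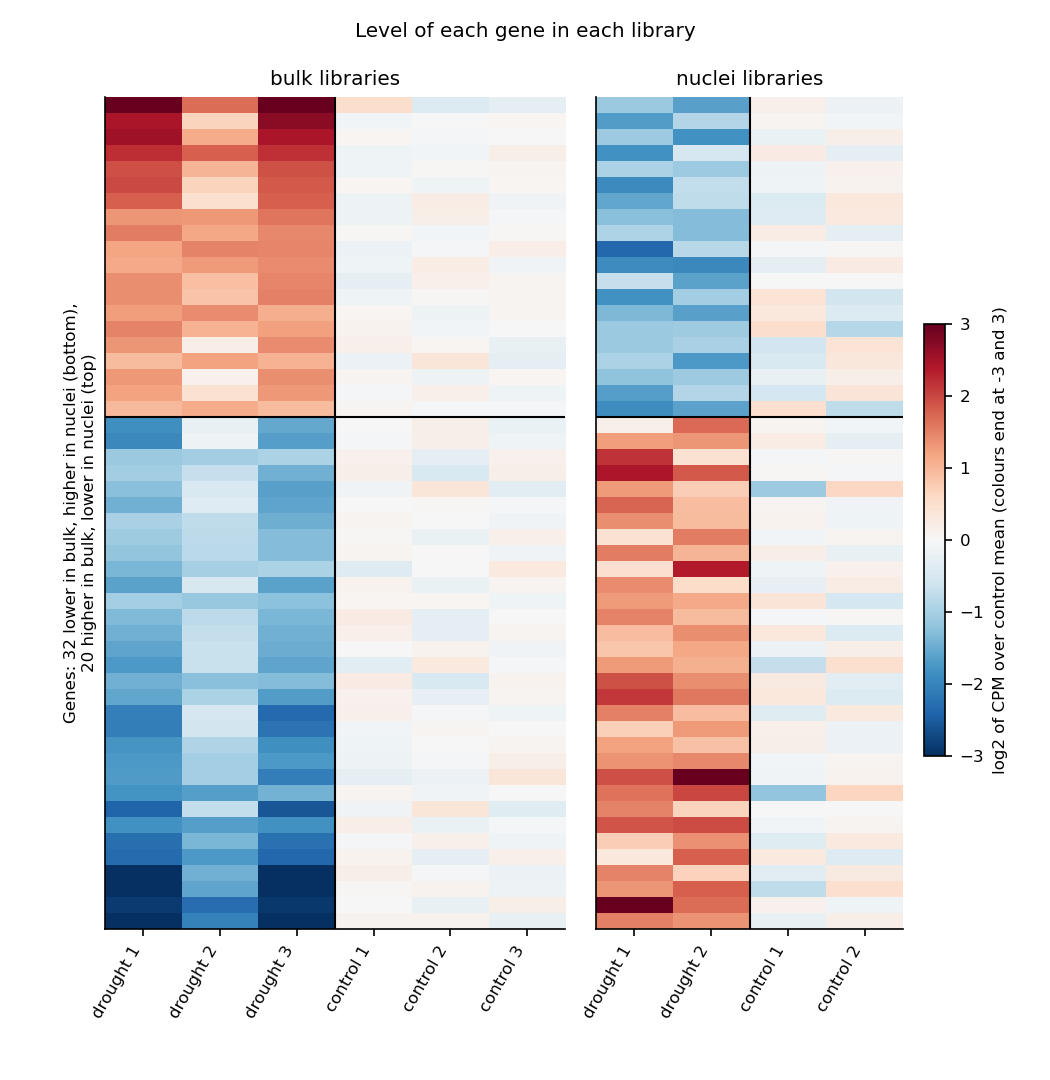
Log2 of CPM over the control mean of the same assay, 1 row per gene and 1 column per library, with drought columns left of control columns. The upper 20 rows are the genes higher in bulk and lower in nuclei and the lower 32 rows the reverse; bulk drought 2 is paler than bulk drought 1 and 3 in most rows.

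The difference in depth between drought and control nuclei was followed for all 52 genes. With only barcodes of 200 or more genes, the nuclei log2 ratio kept its sign in 20 of 20 and 32 of 32 genes, and stayed 2-fold or more in 18 and 30. After the nuclei libraries were thinned to the shallowest, the sign was also kept in all, and 17 and 28 stayed 2-fold. With only barcodes of 300 to 600 UMIs, where median depth was 408 and 393 UMIs under drought against 476 and 429 in controls, all signs were kept, and 14 and 23 stayed 2-fold. Drought and control nuclei libraries then did not overlap for 17 of the 20 and 30 of the 32. A limit of this setting is that fewer UMIs remain for genes that were already sparse. All these runs reuse the libraries, and many of the UMIs, that chose the genes. Kept signs were thus largely set in advance, and other genes were not followed for comparison.

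The level in nuclei relative to bulk, averaged over drought and control with equal weight, was tested for each gene in 1 model of all 10 libraries. This ratio was not itself a limit of the choice, but the choice used the mean CPM of each assay in the same libraries. Bulk counts grow with transcript length and UMI counts need not, so a ratio is read here only against other genes, and gene lengths are not used here. Of the 20 genes higher in bulk under drought, 13 were lower in nuclei than in bulk by edgeR at a false discovery rate of 0.05 and 2 were higher, with a median log2 ratio of -1.83 and a range of -4.46 to 1.40. Of the 32 genes lower in bulk under drought, 10 were lower in nuclei and 9 higher, with a median of -0.11 and a range of -3.30 to 2.28. Over all 17189 genes 41.0% were lower in nuclei and 37.0% higher, with a median of -0.07. The zero point of this ratio is set by the scaling: with no scaling beyond library size, 5089 of the 17189 genes were lower and 8340 higher, with a median of 0.32. On that scale 11 of the 20 were lower and 2 higher, with a median of -1.43, and 6 of the 32 were lower and 12 higher, with a median of 0.28. With TMM, 65% of the 20 genes and 31.3% of the 32 were thus called lower in nuclei, against 41.0% of all 17189 genes. Of the 352 genes higher under drought in both assays, 200 were lower in nuclei and 55 higher, with a median log2 ratio of -0.82, so a low level in nuclei was also common among genes higher in both. Of the 532 genes lower in both, 252 were lower in nuclei and 149 higher, with a median of -0.38.

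The lowest in nuclei relative to bulk were both from the 20 genes. PtXaAlbH.04G015200 was at 1672, 900.3 and 1665 CPM in drought bulk, against 402, 453 and 466 CPM in control bulk. Nuclei held it at 34.7 and 31.6 CPM under drought, against 61.0 and 73.9 CPM in controls. Its level in nuclei was far below its level in bulk under both treatments, with a nuclei over bulk log2 ratio of -4.46 (SE 0.22, adjusted p = 4.41e-08 by edgeR over all genes tested). PtXaAlbH.16G110600 was at 315, 127 and 286 CPM in drought bulk, against 82.9, 73.2 and 83.6 CPM in control bulk. In nuclei it was at 6.73 and 15.0 CPM under drought (13 and 30 UMIs), against 23.1 and 27.4 CPM in controls (101 and 100 UMIs), and the nuclei over bulk log2 ratio was -3.46 (SE 0.31, edgeR adjusted p = 2.43e-06).

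The highest in nuclei relative to bulk were both from the 32 genes. PtXaAlbH.19G092000 was at 283 and 357 CPM in drought nuclei, against 140.0 and 179 CPM in control nuclei. In bulk it was at 17.8, 33.6 and 19.0 CPM under drought, against 53.4, 57.0 and 49.8 CPM in controls. All 4 nuclei libraries were above all 6 bulk libraries, with a log2 ratio of 2.28 (SE 0.17, edgeR adjusted p = 7.74e-07). PtXaAlbH.16G076800, described above for its opposite change, followed with a log2 ratio of 1.87 (SE 0.24, edgeR adjusted p = 4.46e-05). Its control libraries were alike in both assays (24.3 and 20.3 CPM in nuclei, against 28.0, 23.9 and 31.5 CPM in bulk), and the assays lay apart under drought. The ratio of this gene thus rests on the drought values that also chose it, and its p-value is not independent of that choice.

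**Figure D4:**
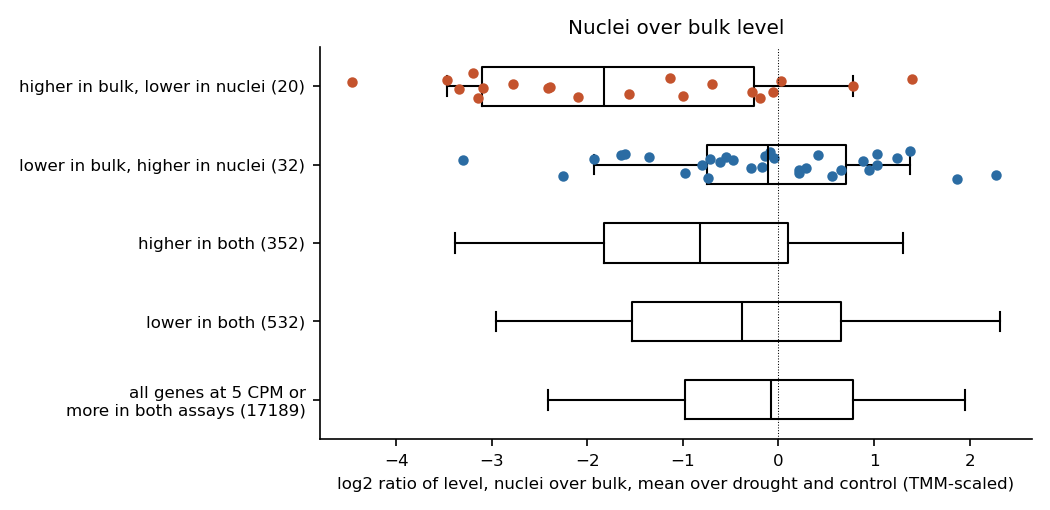
Log2 ratio of level in nuclei over bulk, averaged over drought and control and TMM-scaled, with 1 point per gene for the 20 and the 32 genes. Boxes show quartiles and median with whiskers from the 5th to the 95th percentile. The 20 genes higher in bulk and lower in nuclei have a median of -1.83, against -0.11 for the 32, -0.82 for genes higher in both, -0.38 for genes lower in both and -0.07 for all.

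Nuclei were clustered to describe in which of them the genes were found. The 16956 nuclei with 200 or more genes fell into 20 clusters of at least 10 nuclei, made from genes other than the 52 and other than the genes called in the nuclei comparison. The clusters are numbered by size and stay unnamed. In the 17 clusters with at least 30 nuclei in every library, the summed CPM of the 20 genes was lower in both drought libraries than in both control libraries in 17 of 17. The control mean was 1.60 to 4.54 times the drought mean. The summed CPM of the 32 genes was higher in both drought libraries in 17 of 17, by 1.30 to 3.55 times. The genes were chosen for these directions in the same libraries, and the share of free RNA in the droplets was not measured, so the counts do not show a change in each kind of nucleus. In cluster 10 the 20 genes summed to 1094 and 882 CPM under drought, against 1706 and 2101 CPM in controls, the highest control level of the 17. In cluster 2 the 32 genes summed to 3726 and 4202 CPM under drought, against 2108 and 2013 CPM in controls.

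**Figure D5:**
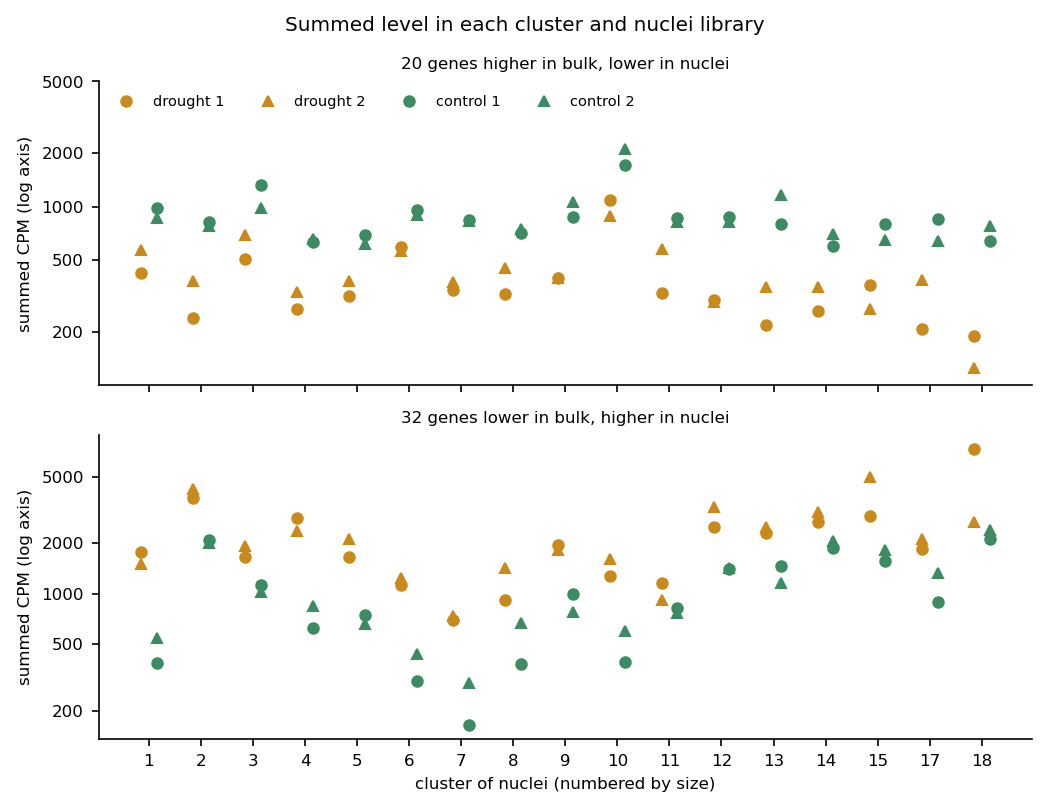
Summed CPM (log axis) of the 20 genes (upper panel) and the 32 genes (lower panel) in 17 clusters of nuclei, with drought libraries left of control libraries in each cluster. In every cluster shown, both drought points lie below both control points in the upper panel and above them in the lower panel.

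Summed levels are led by the abundant genes, so single genes were followed as well. Among pairs of a gene and a cluster with at least 10 UMIs, both drought libraries were below both control libraries in 98 of 163 pairs for the 20 genes and above them in 2. For the 32 genes, both drought libraries were above both control libraries in 138 of 243 pairs and below them in 7. The remaining pairs overlapped. The genes were chosen for these directions in the same libraries, which largely set these counts. The same count was not made over all genes.

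The share of nuclei in each cluster differed between treatments, and its weight in the changes was measured. Cluster 2 held 22.7% and 21.1% of drought nuclei, against 11.5% and 13.2% of control nuclei, and it held the most UMIs of 20 of the 32 genes and of 3 of the 20. Over all 17189 genes, 35.8% had the most UMIs in cluster 2. The UMIs were pooled over the 4 libraries, and the 32 genes were chosen for more CPM in drought nuclei, where cluster 2 was larger. The choice of genes thus partly set these counts. With the share of each cluster fixed at its mean over the 4 libraries, the median nuclei log2 ratio was -1.05 for the 20 genes, against -1.23 with the shares as found. For the 32 genes it was 1.14, against 1.28 with the shares as found. All 52 genes kept their sign with fixed shares, and 11 of the 20 and 21 of the 32 stayed 2-fold or more.

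Some of the genes were concentrated in 1 cluster. A gene's leading cluster was set against all nuclei outside it as a log2 ratio of CPM, with 20 CPM added to each and the lowest of the 4 libraries taken. This log2 ratio had, over the 17 compared clusters, a median of 0.51 in the 20 genes and 0.81 in the 32, and 0.20 over all 17189 genes. It reached 1 in 3 of the 20 and in 11 of the 32, against 12.5% of all genes, so the share in the 20 was near that of all genes. With all 20 clusters, added after the values were seen, it reached 1 in 5 of the 20 and in 11 of the 32, against 13.8% of all genes.

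PtXaAlbH.07G094800, from the 20, had 56.8% of its UMIs in cluster 10 and a log2 ratio of 4.09. It was there at 645 and 441 CPM under drought, against 713 and 1047 CPM in controls. In all other nuclei it was at 10.7 and 6.99 CPM under drought, against 18.2 and 33.7 CPM in controls. Drought was lower inside and outside the cluster, while bulk was higher under drought, at 59.2, 70.5 and 62.3 CPM against 27.1, 39.0 and 25.2 CPM in controls. PtXaAlbH.10G031500, described above, led in the same cluster with a log2 ratio of 2.12 and 21.0% of its UMIs there.

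PtXaAlbH.11G112700, from the 32, had 69.6% of its UMIs in cluster 13 and a log2 ratio of 3.14. It was there at 594 and 477 CPM under drought, against 322 and 181 CPM in controls, and in all other nuclei at 8.91 and 6.45 CPM under drought, against 3.33 and 2.82 CPM in controls. The drought libraries were higher in both places. PtXaAlbH.17G083300 led in the same cluster with a log2 ratio of 2.03 and 45.8% of its UMIs there. It was there at 99.0 and 513 CPM under drought, against 88.5 and 120.4 CPM in controls, and the groups overlapped within that cluster. In all other nuclei it was at 5.34 and 11.0 CPM under drought, against 6.66 and 3.10 CPM in controls, and the groups overlapped again. Whole nuclei libraries were barely apart, at 9.32 and 26.0 CPM under drought (18 and 52 UMIs), against 9.17 and 5.75 CPM in controls (40 and 21 UMIs).

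A small cluster held a large part of 2 genes, PtXaAlbH.01G368700 and PtXaAlbH.16G114900, which were picked after their values were seen. Cluster 20 held 4 and 7 drought nuclei, against 20 and 16 control nuclei, yet 48.1% of the UMIs of PtXaAlbH.01G368700 and 44.2% of those of PtXaAlbH.16G114900. It was too small to be among the 17 compared, and there the log2 ratio to all other nuclei was 5.84 and 5.69, the highest of the 52 genes over all 20 clusters. Inside it PtXaAlbH.01G368700 was at 1618 and 3332 CPM under drought, against 3480 and 2637 CPM in controls. PtXaAlbH.16G114900 was there at 2795 and 2819 CPM under drought, against 2591 and 2851 CPM in controls. Inside the cluster the drought and control libraries overlapped for both genes. Among nuclei with 200 or more genes, the log2 ratios of means without this cluster were -1.48 and -1.52, against -1.65 and -1.40 with them. With fixed cluster shares they were -0.71 and -0.66.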

How the data were processed

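The 52 genes and all comparisons were chosen with earlier results of these data known. The authors deposited raw read counts per gene for bulk and raw UMI counts per feature and barcode for nuclei. HISAT2 is named in the submitters' processing notes without a version; the genome build, the counting tool, the barcode selection and the use of strand are not given in the sources used, so reads of near-identical copies, overlapping genes and the hybrid's alleles are uncertain. UMIs were summed over all deposited barcodes per library. CPM used raw totals. The 25 nuclei features that are not genes, 0.0574% to 0.478% of UMIs, stayed out of tests. edgeR 4.0.16 (R 4.3.3) gave the quasi-likelihood test with TMM, filterByExpr and Benjamini-Hochberg adjustment, checked on simulated data. DESeq2 1.42.0 was an alternative. SDs and standard errors are over libraries, and nuclei were never replicates. Replicate libraries differed beyond sampling noise (chi-square per degree of freedom 4.30 to 158). Clusters used 2000 variable genes, 30 components, 15 neighbours and Leiden resolution 0.5 (leidenalg 0.10.2); 1854 genes were left out, and doublets were neither called nor removed. Leaving out each library, other folds, CPM minimums and scalings were tried.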

Additional observations from a re-analysis of the deposited data

Results flagged for a closer look

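A contrast of nuclei and bulk called the drought effects different for 45 of the 52 genes (edgeR, false discovery rate 0.05), 20 of 20 higher in bulk and 25 of 32 lower in bulk. The genes were chosen for that difference, so the count repeats the choice and is no support for it.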

How the results depend on the processing

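Genes higher in bulk and lower in nuclei numbered 20, and those lower in bulk and higher in nuclei 32. A fold of 1.5 gave 93 and 183, a fold of 3 gave 0 and 3, and a mean CPM of 1 or more gave 44 and 72. The second count fell to 20 at a mean CPM of 10 or more, with 14 in the first. TMM gave 32 and 17, and DESeq2 size factors 30 and 17. For these counts, some settings were added after seeing the data. They were only gene features in nuclei totals, with 22 and 32, and barcodes found in 1 library only, with 22 and 33. The others were the crossed pairing and barcodes of 300 to 600 UMIs, the latter with 33 and 35. Of those 33 and 35 genes, 12 and 23 were among the 20 and the 32. Requiring every same-numbered replicate pair to be 2-fold left 4 and 6, and 3 and 4 with nuclei numbers crossed. Without 1 library the counts ran from 17 to 63 and from 25 to 63.

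The replicate numbers were not taken as pairing: deviations of same-numbered bulk libraries correlated at 0.03, -0.01 and 0.01, and those of nuclei at -0.13. With 2 nuclei libraries a group, crossing the numbers only flips the sign, to 0.13. The nuclei value thus cannot settle whether the numbers mark pairs. With the numbers as a replicate block, the difference between assays was called for 432 genes of all (1156 crossed) in place of 2001, and for 27 of the 52 in place of 45. DESeq2 gave 4297. The cause was not tested. Calls of that difference without 1 library ran from 624 to 6308 for all genes and from 28 to 52 for the 52. The most came without bulk drought library 2, and 28 of the 52 remained without nuclei drought library 1 or nuclei control library 1. Nuclei calls over all genes were 1827, 2816 with no filter on low counts and 2791 with the crossed block. They ran from 853 (without nuclei drought library 2) to 2241, and for the 52 from 16 (without nuclei drought library 1) to 29. Bulk calls ran from 10513 to 17816, and for the 52 from 40 to 52.

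For the nuclei over bulk level, no scaling beyond library size gave 6 in place of 10 lower and 12 in place of 9 higher among the 32, and the median turned to 0.28 (0.32 over all genes) from -0.11 (-0.07 over all genes). It was 0.07 without bulk drought library 2. Without 1 library, 12 to 15 of the 20 were lower and 2 higher, and 7 to 12 of the 32 were lower and 6 to 14 higher, the 14 without bulk drought library 2. The median change within clusters was -1.23 with cluster shares as found, in place of -1.05. Without 1 library it ran from -1.19 to -0.93, and from 1.12 to 1.22 for the 32. The drought log2 ratios of the pair with the largest opposite change in each direction kept their sign in every alternative run. So did the nuclei over bulk log2 ratios of the genes named as lowest or highest by that ratio. Among these, the drought ratio of PtXaAlbH.15G079800 in nuclei was under 2-fold, at -0.83, without nuclei drought library 1. The ratios of the other named genes were not followed singly through these runs. With 2 nuclei libraries a group and as few as 3 UMIs per gene in a drought library, the fold of sparse genes is loosely set.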

Other observations

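Some of the 52 genes had adjacent IDs, which in the files run in order within the number before the G. PtXaAlbH.16G076700 and PtXaAlbH.16G076800 are neighbours, PtXaAlbH.16G009000 and PtXaAlbH.16G009300 lie 3 IDs apart, and PtXaAlbH.07G094200 and PtXaAlbH.07G094800 lie 6 apart. Both members of each pair had the same direction, and the pairs were noticed after the values were seen. PtXaAlbH.16G076700 was at 12.7, 19.3 and 11.8 CPM in drought bulk, against 41.0, 31.5 and 39.7 CPM in control bulk. In nuclei it was at 26.9 and 18.5 CPM under drought, against 7.79 and 4.66 CPM in controls. How reads shared by near-identical neighbours were assigned is not given in the sources used here. Among genes next in ID to the 32 that reached the CPM minimum (27 genes), the median log2 ratio was 0.08 in bulk and 0.25 in nuclei. Next to the 20 (20 genes) it was -0.06 in bulk and -0.11 in nuclei.

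The number 16 before the G, picked as the highest of all such numbers, held 8 of the 52 genes, 1.27% of its 632 genes at the CPM minimum in both assays. The other numbers that held any of the 52 had shares of 0.0741% to 0.614%, and over all numbers the 52 stand among 17189 genes.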
